A study of Mus musculus with 8 samples.

Results

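The 42 genes described here act in mitosis and chromosome segregation, and they were chosen by name: a row belonged to the set when its gene symbol was one of the 42. Of these, 41 were among the 11783 genes of the expression table, Cenpf was not analysed here, and 40 had at least 1 FPKM in at least 4 libraries and were tested. RNA-seq was done on granulosa cells, which surround the oocyte in the follicle. They came from dissociated ovaries of C57BL/6 mice aged 4 days (PND4, 4 libraries) or 1 day (PND1, 4 libraries) after birth. No treatment, transgene or mutation is given for either age. The labels do not tell whether libraries of the same age are from different animals, litters or pools, so the p-values cover only the spread among the libraries, which may be technical. Values are FPKM, a level scaled for transcript length and for sequencing depth, and the read depth itself is unknown. Summed over all listed genes, FPKM ran from 443332.6 to 496462.5 per PND4 library and from 454571.8 to 505035.0 per PND1 library.

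As background, a cell enters mitosis when cyclin A and cyclin B activate the kinase CDK1. Chromosomes are condensed by condensin and topoisomerase II, attached through kinetochores to the spindle, and held by the spindle checkpoint until the anaphase-promoting complex marks cyclin B and securin for destruction. Transcripts of these genes accumulate in late S, G2 and M phase and are low in resting cells, so in a tissue they mark how much of the RNA comes from dividing cells. Granulosa cells of primordial follicles divide little and those of growing follicles divide actively, and primordial follicles form and begin to be activated in the mouse ovary in the days after birth. In RNA from a bulk cell sample, fewer cells in mitosis and less of a transcript per cell cannot be told apart.

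No member of the set passed the test between PND4 and PND1 (limma on log2(FPKM + 1), adjusted p over all genes between 0.805 and 0.998), and 0 had an unadjusted p under 0.05. Over the 10756 genes tested, 1 passed, lower at PND4 (0.0093%), and 635 had an unadjusted p under 0.05 (5.9%), 4.06% of genes higher at PND4 and 1.84% lower. By sign alone, 37 of the 40 tested members had a higher mean log2 value at PND4 and 3 a lower one, against 60.3% of all tested genes above 0. The median log2 difference of the members was 0.38, and that of all tested genes 0.078. One library set most of this difference: without PND1 replicate 1 the members' median was 0.066 and 26 of 40 were above 0, against a median of 0.028 and 54.1% for all genes. The libraries of the 2 ages overlapped for all 41 members measured. Among all tested genes, 3.16% had non-overlapping libraries with PND4 higher and 1.08% with PND4 lower.

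The members spanned a wide range of levels. Averaged over the 8 libraries, the median member stood at 12.9 FPKM, against 9.64 FPKM for all tested genes, and 31 of the 41 were above 9.64 FPKM. Ube2c, the ubiquitin-conjugating enzyme of the anaphase-promoting complex, had the highest mean at 85.4 FPKM, above 94.2% of tested genes. It was followed by cyclin A2 (Ccna2) at 73.1, Cks1b at 63.9, Hmgb2 at 47.3 and survivin (Birc5) at 46.9 FPKM. The first 2 in this order overlapped nearly throughout, since the libraries of Ube2c ran from 38.9 to 136 FPKM and those of Ccna2 from 37.6 to 108 FPKM. At the low end were Kif20b at 2.05, the proliferation antigen gene Mki67 at 1.38 and Cenpe at 1.12 FPKM. Mki67 and Cenpe have long transcripts, with a longest annotated form of 10061 and 7910 bases. The 3 members over 6 kb, Mad2l1 (9.47 FPKM) among them, had a median level of 1.38 FPKM. The 1176 listed genes of that length had a median of 5.65 FPKM, against 9.47 FPKM for the 3944 listed genes under 2 kb. Shorter members showed no steady fall with length. Their median was 18.1 FPKM for the 6 under 2 kb, 11.2 for the 20 of 2 to 4 kb and 15.7 for the 12 of 4 to 6 kb. The part of length in these levels was not tested.

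Most promoters listed for the set held sequence features that genes of this class are known to carry. The choice by name did not use promoter sequence, but it picked genes of that class, so the match rates are not independent of it. Many G2 and M phase genes carry a cell-cycle homology region (CHR, TTTGAA), the element bound by the DREAM and MuvB complexes, together with CCAAT boxes bound by NF-Y. Windows from 250 bases before to 50 after the annotated start were searched on both strands for TTTGAA and for CCAAT in RefSeq promoters (GRCm38.p6), with overlapping matches counted and neither motif excluded by the other. Promoters were listed for 37 of the 42 members, 40 promoters in all, with Ccna2, Aurkb, Kif20a, Tpx2 and Smc4 not listed. A CHR was present in 31 of the 40 (77.5%), against 17.9% of the 32817 promoters of all genes and 11.6% of the 9497 promoters of genes tested here. A CCAAT box was present in 31 (77.5%), against 37.4% of all promoters and 37.7% of those of genes tested. In 20 (50%) there were 2 or more, against 11.7% of all promoters and 14.4% of those of genes tested. Both motifs stood together in 27 member promoters (67.5%), against 6.94% of all promoters and 4.69% of those of genes tested. Bub3, Ect2 and Prc1 had overlapping windows, and matches these windows shared were counted in each. By gene, 28 of 37 members had a CHR and 24 had both motifs, against 1022 and 424 of 7441 tested genes. A match describes these letters only.

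The following 250 bases end 1 base before the annotated start, 5′ to 3′ on the gene's own strand (RefSeq, GRCm38.p6), with CHR and CCAAT matches on either strand in capitals. They are shown because Ube2c had the highest level, Ccnb2 and Cdc20 were listed at 0 in one library, Cdk1 encodes the kinase that starts mitosis, and Birc5, with no match to either motif, had the log2 difference nearest 0.
Ube2c (chr2:164769679-164769928, plus strand): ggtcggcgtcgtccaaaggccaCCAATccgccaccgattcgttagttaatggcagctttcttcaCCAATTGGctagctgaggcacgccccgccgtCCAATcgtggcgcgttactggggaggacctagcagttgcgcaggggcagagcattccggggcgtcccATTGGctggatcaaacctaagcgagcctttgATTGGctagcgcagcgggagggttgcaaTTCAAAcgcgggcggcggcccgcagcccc
Ccnb2 (chr9:70421555-70421804, minus strand): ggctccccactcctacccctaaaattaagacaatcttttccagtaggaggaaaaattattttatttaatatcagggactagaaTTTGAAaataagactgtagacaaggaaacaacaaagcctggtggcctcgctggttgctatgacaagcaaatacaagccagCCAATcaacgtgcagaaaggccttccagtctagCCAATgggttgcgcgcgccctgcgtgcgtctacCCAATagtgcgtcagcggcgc
Cdc20 (chr4:118437344-118437593, minus strand): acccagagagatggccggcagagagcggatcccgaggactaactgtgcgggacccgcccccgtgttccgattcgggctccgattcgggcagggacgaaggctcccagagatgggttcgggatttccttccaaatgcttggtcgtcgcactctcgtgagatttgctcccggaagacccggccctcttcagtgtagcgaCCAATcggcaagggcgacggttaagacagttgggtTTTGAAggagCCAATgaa
Cdk1 (chr10:69352913-69353162, minus strand): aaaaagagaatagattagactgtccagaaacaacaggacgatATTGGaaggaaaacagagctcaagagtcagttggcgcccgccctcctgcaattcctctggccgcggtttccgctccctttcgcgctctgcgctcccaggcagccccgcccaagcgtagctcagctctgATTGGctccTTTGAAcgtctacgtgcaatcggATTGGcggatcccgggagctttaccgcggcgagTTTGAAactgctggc
Birc5 (chr11:117848987-117849236, plus strand): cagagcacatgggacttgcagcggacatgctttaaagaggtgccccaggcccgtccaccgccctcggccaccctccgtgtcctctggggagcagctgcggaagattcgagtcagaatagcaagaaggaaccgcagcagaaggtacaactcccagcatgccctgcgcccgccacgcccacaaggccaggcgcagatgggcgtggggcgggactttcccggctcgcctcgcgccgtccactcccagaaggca
Before the start, Cdc20 had a CHR at positions -18 to -13 with CCAAT boxes on both sides of it, and Cdk1 had CHRs at -71 to -66 and at -15 to -10. The Ube2c match lay on the opposite strand at -29 to -24, with 6 CCAAT boxes upstream of it. Ccnb2 had 3 evenly placed CCAAT boxes from -87 to -17, and a second CHR just after the start, at 4 to 9. Where the promoter window held TTTGAA on either strand, the 27 tested members had a median log2 difference of 0.39. The 8 tested members with a listed promoter and no TTTGAA had one of 0.37, so the 2 groups of members lay close together. For the CHR only these exact letters were searched, so the 8 are not shown to lack the element.

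**Figure D1:**
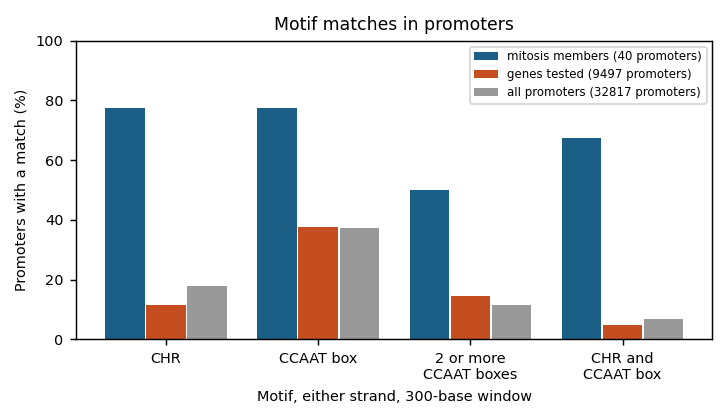
Share of promoters (vertical axis, percent) with a match to each motif, for the members, for the genes tested and for all promoters in the reference table. For the CHR the member bar stands at 77.5% and that of all promoters at 17.9%, and for CHR and CCAAT box together at 67.5% and 6.94%.

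The libraries differed more within an age than the ages did. Summed FPKM of the 41 members was 1129.3, 959.9, 765 and 715 in PND4 replicates 1 to 4, against 365, 792, 781 and 936 in PND1 replicates 1 to 4. PND4 replicate 1 was the highest of the 8 and PND1 replicate 1 the lowest, while the other 6 libraries lay between 715 and 959.9 with both ages mixed. PND4 replicate 1 was the highest library for 21 of 41 members, against 13.9% of tested genes. PND1 replicate 1 was the lowest library for 37 of the 41 members, the exceptions being Cenpe, Ndc80, Ckap2 and Ttk, against 28.0% of tested genes. On the log2(FPKM + 1) scale, the median member stood 0.54 above its own mean over the 8 libraries in PND4 replicate 1 and 0.95 below it in PND1 replicate 1. The same median over all tested genes was -0.11 in PND4 replicate 1 and -0.15 in PND1 replicate 1.

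**Figure D2:**
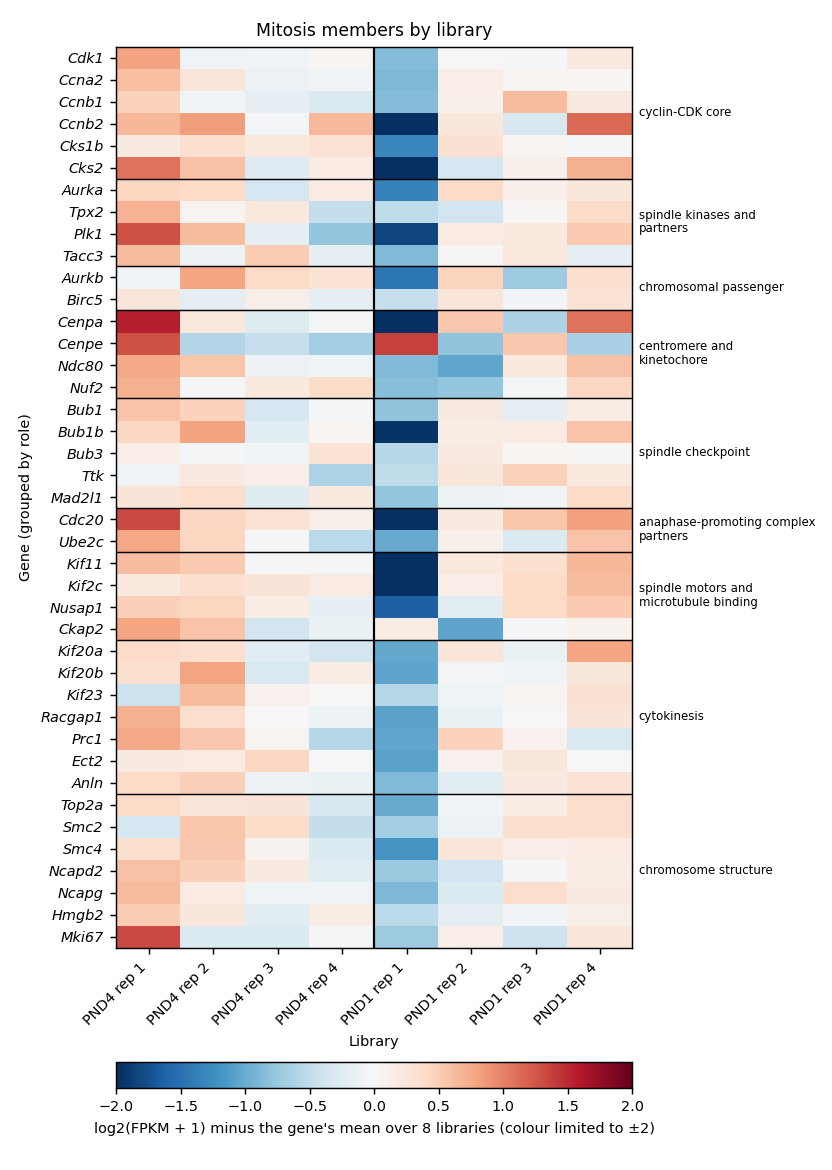
Each row is a member, grouped by role, and each column a library, PND4 left of PND1; colour gives log2(FPKM + 1) minus the gene's mean over the 8 libraries, limited to 2 either way. The column of PND4 replicate 1 is mostly red, and the column of PND1 replicate 1 is blue in nearly every row, with Ckap2 and Cenpe apart.

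Both of these libraries also stood apart over the whole table. Genes listed at exactly 0 numbered 1097 in PND4 replicate 1 and 1234 in PND1 replicate 1, against 222 to 858 in the other 6 libraries. The members were high in PND4 replicate 1 and low in PND1 replicate 1. The SD of the log2 deviation over all tested genes was 0.67 in each of the 2, and 0.39 to 0.52 elsewhere. S phase genes were lower in PND1 replicate 1 by a smaller step: the 40 genes of DNA replication summed to 1204.9 FPKM there and to between 1405.4 and 1671.7 in the other 7 libraries. Member FPKM per FPKM of S phase genes was 0.804 in PND4 replicate 1 and 0.303 in PND1 replicate 1, and 0.448 to 0.628 in the others. Granulosa markers (11 of 12 listed) summed to between 974 and 1331.5 FPKM per PND4 library and between 915 and 1376.4 per PND1 library. The sum was 974 in PND4 replicate 1 and 1335.6 in PND1 replicate 1. Most of it was keratin, with Krt18 at 379 and 552 FPKM and Krt8 at 289.7 and 392 FPKM in these libraries. Foxl2 (26.2 and 10.5 FPKM) and Fst (15.4 and 7.36) went the other way, and Kitl was level (63.4 and 63.5). Krt19, Gata4, Wt1, Nr5a1, Amhr2 and Irx3 were lower in PND4 replicate 1. The granulosa marker sum was lowest in PND1 replicate 2, at 915 FPKM, as was the sum of surface epithelium markers, at 41.6 FPKM. How much of the keratin came from granulosa cells was not tested, so the sum is not a measure of granulosa cells alone. The part of the library differences in the member values was not tested beyond leaving libraries out.

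The cyclin and CDK1 core comprised the kinase gene Cdk1, its cyclins Ccna2, Ccnb1 and Ccnb2, and the small CDK-binding subunit genes Cks1b and Cks2. Ccna2 (chromosome 3 from 36564865 to 36572150, GRCm38), whose product acts in S phase and at mitotic entry, had 108, 83.9, 64.99 and 67.9 FPKM in PND4 replicates 1 to 4, against 37.6, 77.3, 72.9 and 72.3 FPKM in PND1 replicates 1 to 4. PND1 replicate 1 lay below all other libraries, and the log2 difference of 0.34 (95% interval -0.18 to 0.86) was 0.10 without it. Cks1b had 68.7, 76.2, 70.4 and 74.1 FPKM in the PND4 libraries, against 23.9, 75.5, 62.7 and 59.7 in the PND1 libraries. Its PND4 values lay close together and 3 of the PND1 values lay near them, with PND1 replicate 1 far below (log2 difference 0.49, SE 0.29, unadjusted p = 0.113, adjusted p = 0.805, limma). Cks2, the paralog of Cks1b, was more spread, at 50.6, 35.7, 19.3 and 26.3 FPKM at PND4, against 4.86, 18.2, 25.2 and 38.9 FPKM at PND1, and its log2 difference of 0.79 (95% interval -0.32 to 1.90) was 0.24 without PND1 replicate 1. Ccnb2, a B-type cyclin, had 12.97, 14.8, 7.63 and 12.8 FPKM at PND4, was listed at 0 in PND1 replicate 1 and at 9.35, 6.097 and 18.5 FPKM in the other PND1 libraries. Its highest and lowest values were both from PND1. Cdk1 averaged 18.7 ± 6.57 FPKM at PND4 and 14.5 ± 4.37 at PND1, and cyclin B1 (Ccnb1) 9.35 ± 2.55 FPKM at PND4 and 9.95 ± 4.19 at PND1 (SD, n = 4 each). Ccnb1 was one of the 3 members with a log2 difference below 0 (-0.017, 95% interval -0.73 to 0.69).

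**Figure D3:**
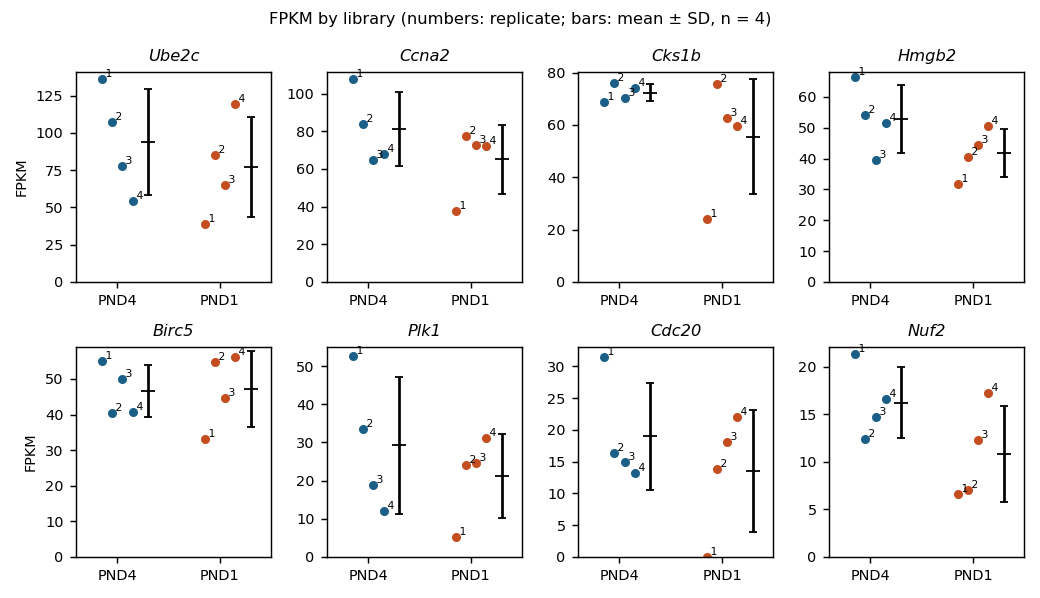
FPKM (vertical axes) of 8 members in each library, PND4 left of PND1, with replicate numbers beside the points and the mean ± SD of 4 libraries beside each group. PND1 replicate 1 is the lowest point for all 8 genes, and the ages overlap in every panel.

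Among the spindle kinases and their partners, Plk1, the polo-like kinase of centrosome maturation and mitotic progression, had 52.7, 33.4, 18.7 and 12 FPKM in the PND4 libraries, against 5.27, 24.1, 24.5 and 31.1 FPKM in the PND1 libraries. Within PND4 alone its values differed more than the means of the ages did. The log2 difference of 0.47 (95% interval -0.71 to 1.64) was -0.064 without PND1 replicate 1. Aurka, the kinase of spindle poles, had 23.9, 23.5, 13.7 and 19.7 FPKM at PND4, against 6.26, 23.2, 18.98 and 20.6 FPKM at PND1, and 7 of the 8 libraries lay between 13.7 and 23.9. Tacc3, a spindle protein that Aurora A phosphorylates, had 19.6, 11.4, 17.9 and 10.6 FPKM at PND4, against 6.198, 12.5, 14.4 and 10.6 FPKM at PND1 (log2 difference 0.42, unadjusted p = 0.173, adjusted p = 0.830, limma). Tpx2, the activator of Aurora A on microtubules, averaged 14.3 ± 5.03 FPKM at PND4 and 11.8 ± 3.66 at PND1. All 4 genes had a log2 difference above 0 with 8 libraries, and 2 of the 4 without PND1 replicate 1.

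The chromosomal passenger complex was represented by its kinase gene Aurkb and by Birc5 (survivin), the subunit that places it at centromeres. Aurkb had 15.02, 28.03, 20.8 and 19.2 FPKM in the PND4 libraries, against 5.102, 21.7, 9.27 and 20.02 FPKM in the PND1 libraries. PND1 replicates 1 and 3 were low, and the log2 difference of 0.69 (SE 0.39, adjusted p = 0.805, limma) was 0.32 without PND1 replicate 1. Birc5 (chromosome 11 from 117849251 to 117855743) had 55.1, 40.5, 50.02 and 40.7 FPKM at PND4, against 33.2, 54.8, 44.7 and 56.2 FPKM at PND1. Its log2 difference was -0.0023 (95% interval -0.41 to 0.40), and its coefficient of variation over the 8 libraries, 17.9%, was the second lowest in the set after that of Bub3, 16.2%.

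Of the centromere and kinetochore genes, Nuf2, a subunit of the NDC80 complex that binds microtubule ends, had the smallest unadjusted p of the set. It had 21.3, 12.4, 14.7 and 16.6 FPKM in the PND4 libraries, against 6.61, 6.97, 12.3 and 17.2 FPKM in the PND1 libraries (log2 difference 0.62, 95% interval -0.04 to 1.28, limma, unadjusted p = 0.0631, adjusted p = 0.805). PND1 replicates 1 and 2 were low while PND1 replicate 4 exceeded 3 of the PND4 libraries. Its partner Ndc80 had 11.4, 9.72, 5.704 and 5.91 FPKM at PND4, against 2.95, 2.57, 7.46 and 9.95 FPKM at PND1, with the same 2 PND1 libraries low. Cenpa, the histone H3 variant of centromeres, had 15.6, 5.48, 3.73 and 4.56 FPKM at PND4 and was listed at 0 in PND1 replicate 1, with 7.20, 2.61 and 10.9 FPKM in the other PND1 libraries. PND4 replicate 1 set its upper end. Cenpe, the kinetochore motor, did not reach the filter: it had 3.22, 0.171, 0.278 and 0.0908 FPKM at PND4, against 3.53, 0, 1.56 and 0.113 FPKM at PND1, and was highest in both libraries numbered 1.

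The spindle checkpoint genes encode the kinases and adaptors that delay anaphase while kinetochores are unattached. Bub3, a subunit of the checkpoint complex, had 31.4, 27.9, 27.4 and 34.6 FPKM in the PND4 libraries, against 18.9, 32.2, 29.4 and 28.8 FPKM in the PND1 libraries, the most even values of the set. Bub1b, which encodes BUBR1, had 13.7, 18.3, 8.53 and 10.5 FPKM at PND4, against 1.82, 11.2, 11.4 and 15.4 FPKM at PND1. The mean of the other 3 PND1 libraries was 6.94 times that of PND1 replicate 1, and the log2 difference of 0.54 (95% interval -0.54 to 1.61) was -0.028 without it. The kinase gene Bub1 averaged 12.4 ± 3.81 FPKM at PND4 and 9.69 ± 3.02 at PND1, and Mad2l1, which encodes the inhibitor MAD2, 10.3 ± 1.89 FPKM at PND4 and 8.604 ± 2.99 at PND1 (SD, n = 4 each). Ttk, the MPS1 kinase gene, had a lower mean at PND4, 7.38 ± 1.92 FPKM at PND4 and 8.63 ± 2.5 at PND1, with a log2 difference of -0.19 (95% interval -0.83 to 0.44, limma, adjusted p = 0.921).

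The anaphase-promoting complex was represented by its activator gene Cdc20 and by Ube2c. Ube2c (chromosome 2 from 164769898 to 164778822) had 136, 107, 77.6 and 54.4 FPKM in the PND4 libraries, against 38.9, 85.1, 65.2 and 119 FPKM in the PND1 libraries. The highest value was from PND4 and the next from PND1, while the lowest was from PND1 and the next from PND4. The log2 difference of 0.31 (95% interval -0.43 to 1.05) was 0.024 without PND1 replicate 1. Cdc20 had 31.5, 16.3, 14.96 and 13.2 FPKM at PND4, was listed at 0 in PND1 replicate 1 and had 13.8, 18.1 and 22.1 FPKM in the other PND1 libraries. Its log2 difference of 1.07 was the largest of the set, with an interval of -0.74 to 2.89, and it was 0.016 without the library at 0. An exact 0 can be a failed estimate in a table without counts.

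The spindle motor and microtubule genes include kinesins and microtubule-binding proteins. Kif11, the plus-end motor that separates spindle poles, had 14.4, 13.4, 8.84 and 8.86 FPKM in the PND4 libraries, against 1.08, 10.6, 11.6 and 14.96 FPKM in the PND1 libraries. Kif2c, a kinesin that depolymerises microtubules at centromeres, had 6.01, 6.64, 6.29 and 5.82 FPKM at PND4, against 0.417, 5.66, 7.01 and 8.402 FPKM at PND1. For Kif2c the mean of the other 3 PND1 libraries was 16.8 times PND1 replicate 1, and for Kif11 11.5 times. Nusap1, a spindle-bundling protein gene, had 14.1, 13.6, 11 and 8.66 FPKM at PND4, against 2.49, 8.39, 13.3 and 14.6 FPKM at PND1. Without PND1 replicate 1 the log2 differences of these 3 genes were -0.13, -0.15 and -0.016. Ckap2, for a spindle-associated protein, went the other way in that library, with 16.6, 14.1, 6.83 and 8.24 FPKM at PND4, against 10.2, 3.87, 8.97 and 9.65 FPKM at PND1.

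Cytokinesis genes act at the central spindle and the cleavage furrow. Prc1, the bundler of central spindle microtubules, had 42.4, 36.5, 25.7 and 16.4 FPKM in the PND4 libraries, against 11.5, 34.5, 26.4 and 19.95 FPKM in the PND1 libraries. Anln (anillin), the furrow scaffold, had 30.5, 32.5, 21.2 and 20.95 FPKM at PND4, against 12.1, 19.9, 26.2 and 28.4 FPKM at PND1. Both genes were high in PND4 replicates 1 and 2, and PND4 replicates 3 and 4 lay among the PND1 libraries. Racgap1, a centralspindlin subunit, had 19.5, 14.96, 11.5 and 10.7 FPKM at PND4, against 5.003, 10.4, 11.5 and 13.98 FPKM at PND1 (log2 difference 0.47, limma, unadjusted p = 0.150, adjusted p = 0.816). Ect2, the RhoA exchange factor that it recruits, averaged 23.5 ± 2.89 FPKM at PND4 and 18.8 ± 6.59 at PND1 (SD, n = 4 each). Of the kinesin genes, Kif20a averaged 8.99 ± 2.58 FPKM at PND4 and 9.26 ± 4.97 at PND1, and Kif23, the other centralspindlin subunit, 7.901 ± 2.75 FPKM at PND4 and 6.91 ± 1.91 at PND1. Kif20b, another cytokinesis kinesin, had 1.33 to 3.98 FPKM at PND4 and 0.389 to 2.37 FPKM at PND1. PND1 replicate 1 was the lowest library for all 7 genes.

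Chromosome structure genes comprised condensin subunits, topoisomerase II, a chromatin protein and Mki67. Ncapd2, a non-SMC subunit of condensin I, had 21.9, 20.2, 16.3 and 12.2 FPKM in the PND4 libraries, against 8.15, 10.7, 13.9 and 15.9 FPKM in the PND1 libraries (log2 difference 0.51, 95% interval -0.042 to 1.06, limma, unadjusted p = 0.0669, adjusted p = 0.805). In 3 PND4 libraries it lay above all PND1 libraries, and PND4 replicate 4 lay below 2 of them. Hmgb2, a DNA-bending protein of proliferating cells, had 66.4, 54.1, 39.5 and 51.4 FPKM at PND4, against 31.7, 40.4, 44.5 and 50.5 FPKM at PND1 (log2 difference 0.33, unadjusted p = 0.106, adjusted p = 0.805). Top2a, which untangles sister chromatids, had 34.8, 31.8, 31.96 and 21.2 FPKM at PND4, against 12.7, 25.5, 29.7 and 34.1 FPKM at PND1, and a log2 difference of -0.0061 without PND1 replicate 1. Of the other condensin genes, Smc2 averaged 12.8 ± 4.85 FPKM at PND4 and 12.3 ± 4.02 at PND1 (SD, n = 4 each). Its partner Smc4 averaged 18.2 ± 4.498 FPKM at PND4 and 15.2 ± 5.83 at PND1, and the condensin I subunit gene Ncapg 13.6 ± 3.65 FPKM at PND4 and 11.1 ± 4.22 at PND1. Mki67 had 4.43, 0.794, 0.787 and 1.13 FPKM at PND4, against 0.305, 1.38, 0.629 and 1.56 FPKM at PND1, so a single PND4 library stood above all the others.

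**Figure D4:**
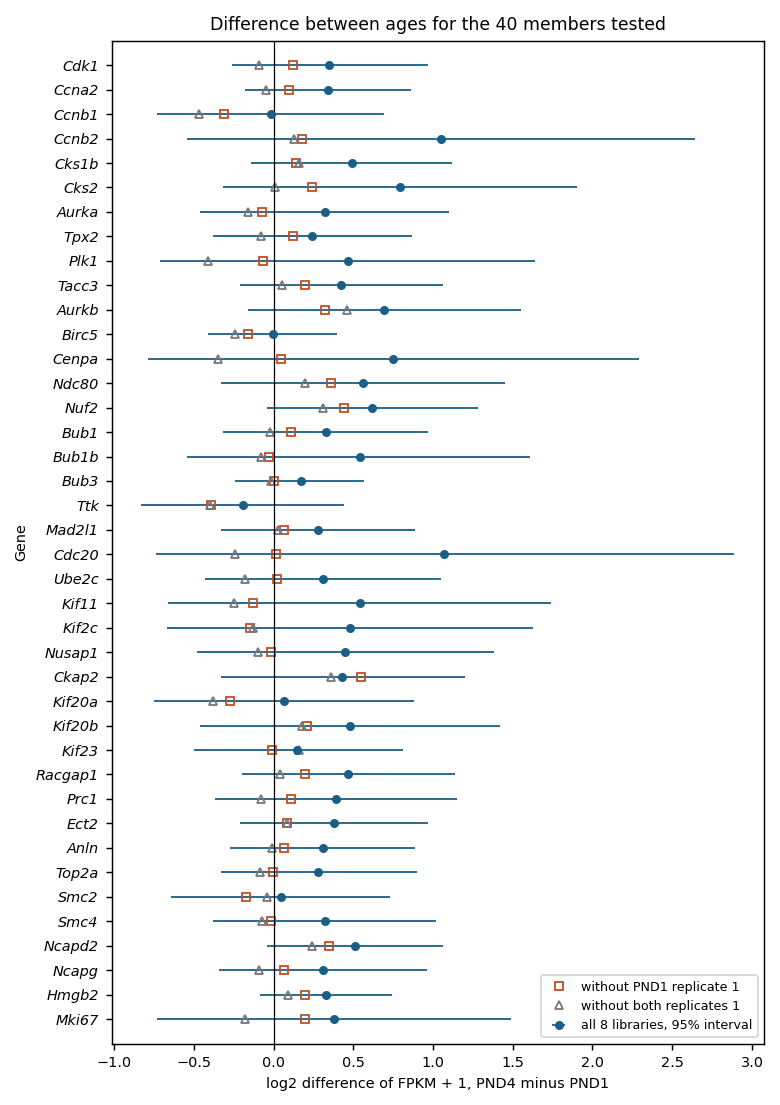
Log2 difference of FPKM + 1, PND4 minus PND1 (horizontal axis), for the 40 tested members in role order: circles with 95% intervals use 8 libraries, squares leave out PND1 replicate 1 and triangles leave out both libraries numbered 1. All 40 intervals include 0, and most squares and triangles lie left of the circles.

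The intervals show what these libraries could resolve. The 95% interval of a member's log2 difference reached 0.40 to 1.82 to either side, with a median of 0.69, against 0.65 for all tested genes. Leaving out both libraries numbered 1 gave a members' median of -0.058 with 15 of 40 above 0, against 0.085 and 62.0% for all tested genes. These libraries held the highest and the lowest member sums and were chosen after seeing the data, so a fall in the members' median was built into the choice. Leaving out PND4 replicate 1 alone gave 0.24 with 36 above 0, against 68.0% of all tested genes, and leaving out any 1 of the remaining 6 gave between 0.31 and 0.48. With libraries weighted by their consistency over all genes (limma array weights), the members' median was 0.083 with 29 above 0, against 0.070 and 60.3% for all genes. Under those weights 0 members and 0.0186% of all tested genes passed the adjusted test. With median-of-ratios scaling 36 of 40 members were above 0, against 51.2% of all genes, and with upper-quartile scaling 35 of 40, against 50.4%. The authors' deposited table gives a ratio of PND1 over PND4. In it 35 of the 41 members had a rounded ratio below 1, and 53.6% of the 11783 genes had an unrounded ratio below 1. Kif23, not among the 35, had a rounded ratio of 1.0 and a log2 ratio of -0.00067, just below equality. In the same source 0 of 41 members had a p-value under 0.05, against 6.55% of all genes. The smallest member q-value in the authors' deposited table was 0.757, for Ncapd2.

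**Figure D5:**
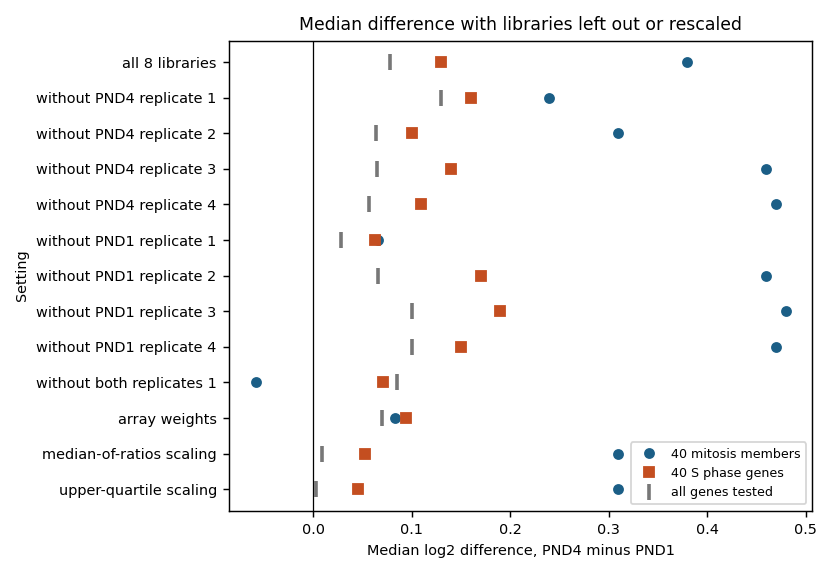
Median log2 difference, PND4 minus PND1 (horizontal axis), of the 40 tested mitosis members (circles), 40 S phase genes (squares) and all tested genes (bars) under each setting (vertical axis). The members' median is 0.38 with 8 libraries, 0.066 without PND1 replicate 1 and -0.058 without both libraries numbered 1. That pair held the members' highest and lowest sums, so a fall was built into leaving it out.

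Other genes of the mitotic pathway, from lists that hold no member, had 0 genes past the test in either direction. The 25 other spindle and cytokinesis genes tested were nearest to the members, with a median log2 difference of 0.24, 24 above 0 (60.3% of all tested genes were) and a median of 0.046 without PND1 replicate 1. Their most abundant genes were Kpna2, an importin that holds spindle factors, at 79.6 ± 10.1 FPKM at PND4 and 70.8 ± 10.4 at PND1, and the gamma-tubulin gene Tubg1, at 41.7 ± 2.18 FPKM at PND4 and 36.3 ± 7.44 at PND1. The 37 other kinetochore and condensin genes tested had a median of 0.17 with 28 above 0, and 0.0094 without PND1 replicate 1. Zwint, a kinetochore adaptor gene, averaged 79.2 ± 7.66 FPKM at PND4 and 81.1 ± 7.86 at PND1, and the condensin II gene Ncaph2 38.8 ± 5.88 FPKM at PND4 and 37.6 ± 2.81 at PND1. Zwint, unlike nearly all members, was not low in PND1 replicate 1, at 87.5 FPKM there.

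Subunits and regulators of the anaphase-promoting complex (19 tested) had a median log2 difference of 0.088 with 14 above 0, and cohesin genes (14 tested), which hold sister chromatids together, one of 0.11 with 11 above 0. Anapc5, a complex subunit gene, averaged 67.5 ± 5.13 FPKM at PND4 and 66.3 ± 14.6 at PND1, the ubiquitin-chain elongating enzyme gene Ube2s 65.8 ± 29.9 FPKM at PND4 and 56.9 ± 5.48 at PND1, and the cohesin cleavage target Rad21 60.99 ± 9.22 FPKM at PND4 and 52.2 ± 8.12 at PND1. The cohesin subunit gene Stag2 averaged 28.2 ± 6.45 FPKM at PND4 and 31.7 ± 8.62 at PND1. Genes that control entry into mitosis (20 tested), Foxm1, Mybl2 and the MuvB subunits among them, had a median of 0.062 with 12 above 0. Of these, E2f4, a repressor subunit of DREAM, averaged 40.01 ± 9.73 FPKM at PND4 and 34.7 ± 11.6 at PND1, and Wee1, the inhibitory kinase of CDK1, 21.9 ± 3.501 FPKM at PND4 and 25.7 ± 3.01 at PND1 (SD, n = 4 each).

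S phase genes (40 tested) had a median log2 difference of 0.13 with 31 above 0, and 0.063 with 23 above 0 without PND1 replicate 1. Pcna, the sliding clamp of DNA polymerase, averaged 227 ± 29.01 FPKM at PND4 and 212 ± 8.56 at PND1, with 200.1 FPKM in PND1 replicate 1, inside the range of the other libraries. Rrm1, the large subunit of ribonucleotide reductase, averaged 138 ± 11.8 FPKM at PND4 and 117 ± 19.3 at PND1, with 88.4 FPKM in that library, the lowest of the 8. The mixed list of CDK inhibitors and G1 cyclins (12 tested) had a median of -0.082 and 4 above 0. All 4 were CDK inhibitor genes: Cdkn1a (0.53), Cdkn1b (0.58), Cdkn2c (0.84) and Cdkn2d (0.75). The inhibitor genes Cdkn1c (-0.38) and Cdkn2b (-1.63) lay below 0, as did the D-type cyclins, Cdk4, Cdk6 and Rb1. Ccnd2, the D-type cyclin of granulosa cells, averaged 155 ± 19.3 FPKM at PND4 and 187 ± 20.9 at PND1, and its kinase partner Cdk4 125 ± 18.8 FPKM at PND4 and 131 ± 4.23 at PND1. Neither was low in PND1 replicate 1, at 186 and 133 FPKM.

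Markers of other cells that the samples could hold differed between libraries in other patterns. Foxl2 and Kitl, both on the granulosa marker list, were present in all 8 libraries, and no granulosa marker was at 0 in any library. Oocyte markers (10 of 12 listed) summed to between 15.98 and 195 FPKM per PND4 library and between 12.2 and 61.6 per PND1 library, with 15.98 in PND4 replicate 1 and 36.6 in PND1 replicate 1. Nobox, Sohlh1, Figla, Dazl and Ddx4 were at 0 in PND4 replicate 1, and Ddx4 in PND1 replicate 1. Stroma markers (8 of 8) summed to between 128 and 161 FPKM per PND4 library and between 99.5 and 112 per PND1 library. Erythroid markers (3 of 6) summed to between 0.268 and 11.4 FPKM per PND4 library and between 17.1 and 48.9 per PND1 library, and immune markers (3 of 6) to between 2.92 and 14.1 FPKM per PND4 library and between 4.04 and 9.82 per PND1 library. Surface epithelium markers (5 of 5) summed to between 85.01 and 158 FPKM per PND4 library and between 41.6 and 133 per PND1 library, and the 6 endothelial markers were not analysed here. The part of these cells in the member values was not tested.

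Some members share sequence with other genes, and the sources used here do not tell whether reads were counted by strand. Exonic bases overlapped a gene on the opposite strand for Kif20a (Cdc23, 29.3% of its exonic bases), Ube2c (Tnnc2, 22.8%), Ncapg (Lcorl, 13.4%), Ccna2 (Exosc9, 12.5%) and Prc1 (Rccd1, 11.1%), and for less than that in Cdc20, Nusap1, Plk1 and Tacc3. On the same strand, exonic bases of Ncapd2 overlapped Scarna10 (3.78%) and Gm28967 (3.75%), and those of Top2a overlapped Gm23451 (1.35%). Hmgb2, Cks2, Ccnb1, Mad2l1 and Mki67 have near-identical copies elsewhere, at 95% identity or more over at least 200 bases. The longest match covers 51.99% of the Ccnb1 transcript, 34.68% of that of Cks2 and 24.16% of that of Hmgb2. It covers 6.01% of the Mad2l1 transcript and 2.15% of that of Mki67. For Hmgb2 the copies Gm4739 and Gm13237, and for Cks2 the copies Gm15452 and Gm19945, were themselves in the table. Levels of these members are uncertain to that extent.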

How the data were processed

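RNA-seq of granulosa cells from mice at PND4 (4 libraries) and PND1 (4 libraries) was used. The submitters' processing notes name Trim Galore, HISAT2 and the build GRCm38, without versions. Per the file headers, the authors deposited FPKM for 11783 genes. The sources used here give neither their gene filter nor the program and annotation behind these values. A column of summed signal over the 8 libraries, deposited by the authors, was not used. A second table the authors deposited holds a ratio of PND1 over PND4, its log2, and a p-value and q-value per gene. Its direction was read from the values. Low FPKM values were searched for whole multiples of 1 read, and whole reads were not recovered, so depth and counting precision are unknown.

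The 10756 genes that reached 1 FPKM in 4 or more libraries were compared as log2(FPKM + 1), PND4 minus PND1, by limma 3.58.1 (R 4.3.3, trended prior variance, no block), with p-values adjusted by the Benjamini-Hochberg method over all genes at 0.05. Adding 1 understates the fold of low genes. The step was tested on simulated data. Libraries were grouped by labelled age. The members and lists were chosen with earlier results of these data known. Values in every library were given for up to 2 members of highest mean in each role and the 8 with the smallest p, and other members were printed where a library stood at 0, a library stood apart or the sign differed, chosen after their values were seen. Of the other lists the 2 genes of highest mean were named. Positions came from GENCODE M21, near-identical copies from BLAST+ 2.17.0 and figures from matplotlib 3.10.9. Alternatives covered scaling, filter, pseudocount, a replicate block and leaving out each library. Leaving out both libraries numbered 1 and array weights were chosen after seeing the data.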

Additional observations from a re-analysis of the deposited data

Results flagged for a closer look

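Each member and the members' sum were examined within each age for a library far from the other 3 (Dixon's test at its 95% critical value), which chance gives in about 1 in 20 groups. Of 84 groups, 7 had such a library, 5 of them PND4 replicate 1 and 2 of them PND1 replicate 1. In PND4 replicate 1, Cdk1 stood at 28.5, Cenpa at 15.6, Cenpe at 3.22, Cdc20 at 31.5 and Mki67 at 4.43 FPKM, each the highest of its age. In PND1 replicate 1, Ccna2 stood at 37.6 and Smc4 at 6.47 FPKM, each the lowest of its age.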

How the results depend on the processing

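No member passed the adjusted test under any setting run: 2 rescalings, 2 other filters, 2 other pseudocounts, the replicate block, each library left out, both libraries numbered 1 left out, and array weights. Array weights raised the genes called over the whole table to 2. Same-numbered libraries' deviations from their age means correlated at -0.0088 to 0.12, and 2 of 8 libraries correlated best with their own number. These values did not show a pairing. They cannot exclude one, and the labels do not say what the numbers mark. With the replicate block, 1 gene of all tested passed and 1 member (Aurkb) had an unadjusted p under 0.05. With 1 library left out 0 to 5 members had such a p. With 1 library left out the members' median ran from 0.066 to 0.48, the lowest without PND1 replicate 1, and the count above 0 from 26 to 39. Leaving out both libraries numbered 1 gave a median of -0.058 with 15 above 0, a fall built into the choice of that pair. Array weights gave a median of 0.083. Rescaling by median-of-ratios or upper-quartile factors moved the median of all genes from 0.078 to 0.0086 and 0.0027 and left the members at 0.31 and 0.31, with 36 and 35 above 0.

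Some members changed sign. The log2 difference was -0.024 for Smc2 with median-of-ratios scaling and -0.0067 for Kif20a and -0.03 for Smc2 with upper-quartile scaling. With array weights it was -0.074 for Tpx2, -0.16 for Plk1, -0.076 for Ube2c, -0.018 for Kif11, -0.00018 for Nusap1, -0.29 for Kif20a, -0.023 for Top2a and -0.10 for Smc2. Without both libraries numbered 1 it was -0.09 for Cdk1, -0.045 for Ccna2, -0.16 for Aurka, -0.076 for Tpx2, -0.41 for Plk1, -0.35 for Cenpa, -0.025 for Bub1, -0.076 for Bub1b, -0.014 for Bub3, -0.24 for Cdc20, -0.18 for Ube2c, -0.25 for Kif11, -0.13 for Kif2c, -0.10 for Nusap1, -0.38 for Kif20a, -0.076 for Prc1, -0.012 for Anln, -0.084 for Top2a, -0.043 for Smc2, -0.07 for Smc4, -0.092 for Ncapg and -0.18 for Mki67. With 1 library left out it ran from -0.27 to 0.34 for Kif20a, -0.16 to 0.089 for Birc5, -0.032 to 0.32 for Kif23, -0.17 to 0.21 for Smc2, -0.31 to 0.19 for Ccnb1, -0.074 to 0.50 for Aurka, -0.064 to 0.81 for Plk1, -0.028 to 0.82 for Bub1b, -0.13 to 0.85 for Kif11, -0.15 to 0.76 for Kif2c, -0.016 to 0.70 for Nusap1, -0.0061 to 0.45 for Top2a and -0.017 to 0.47 for Smc4. The cause was not tested. Unknown read depth limits every low value, those of Mki67, Kif20b and Cenpe most of all.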
